A study of Mus musculus with 12 samples.

Results

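Fgf21 and the other hormones that the liver secretes into the blood were examined in mouse livers lacking phosphatidylcholine transfer protein (PC-TP, gene Pctp), a carrier of phosphatidylcholine between membranes. The genes were chosen by name as well-known secreted liver hormones: Fgf21, Gdf15, Igfbp1, Igfbp2, Igfbp3, Igfbp4, Ahsg, Fetub, Lect2 and Rbp4. Of these 10 genes, 9 were represented by at least 1 of the 22626 probe sets tested, with 14 probe sets in all, 6 of them for Igfbp4. A probe set is a group of short probes on the array that together report 1 transcript. Gdf15, a stress-induced hormone that lowers food intake, has no value here.

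The livers came from 12 male mice on an FVB background, 6 with the genotype Pctp-/- and 6 wild-type littermates. All 12 mice ate a standard diet until 8 weeks of age and then 0.2% fenofibrate (wt/wt) in the diet for 7 days, and livers were taken at 9 weeks. Fenofibrate lowers blood lipids by activating the nuclear receptor PPAR alpha, so every comparison is between knockout and wild-type livers that had both received the drug, and no group without fenofibrate was analysed here. Each liver was hybridised to 1 Affymetrix array, and the sources used here do not give the feeding state, the time of day or the part of Pctp that was disrupted.

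FGF21 is a hormone made mainly by hepatocytes and induced in fasting, by PPAR alpha and by cellular stress. It signals through FGF receptors joined to the co-receptor beta-klotho and acts on adipose tissue and brain. The IGF binding proteins carry insulin-like growth factors in blood, and Igfbp1 is a classic hepatic gene that insulin represses and FOXO transcription factors activate. The fetuins Ahsg and Fetub, the chemotactic factor LECT2 and the retinol carrier RBP4 are abundant liver-derived plasma proteins.

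The 250 bases ahead of the start site of Fgf21 and of Igfbp1 are shown because these genes are textbook examples of different inputs. These are stress response for Fgf21 and insulin repression for Igfbp1. Both are RefSeq sequences of the mouse assembly GRCm38.p6, printed 5′ to 3′ on the gene's own strand, at chr7:45615491-45615740 (minus strand) for Fgf21 and chr11:7197537-7197786 (plus strand) for Igfbp1. Capitals mark the motifs described after them.

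Fgf21: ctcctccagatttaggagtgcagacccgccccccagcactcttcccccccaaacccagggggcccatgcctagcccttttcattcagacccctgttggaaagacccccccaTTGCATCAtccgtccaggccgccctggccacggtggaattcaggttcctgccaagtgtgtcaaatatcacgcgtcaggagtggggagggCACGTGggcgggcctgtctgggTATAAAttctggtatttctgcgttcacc

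Igfbp1: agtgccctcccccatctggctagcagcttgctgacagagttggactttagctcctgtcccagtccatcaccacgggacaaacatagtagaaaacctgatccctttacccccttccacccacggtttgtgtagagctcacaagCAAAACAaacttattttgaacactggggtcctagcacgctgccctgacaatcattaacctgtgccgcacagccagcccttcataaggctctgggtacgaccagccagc

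In the Fgf21 sequence the capitals mark TTGCATCA, the C/EBP-ATF composite known as the amino acid and stress response element, at positions -139 to -132 from the start site, then the E-box CACGTG at -50 to -45 and TATAAA at -28 to -23. In the Igfbp1 sequence they mark CAAAACA, the core of the FOXO-bound insulin response element, at -108 to -102. Searched on both strands and with no overlap between these matches, TTGCATCA was in 0.791% of 32851 RefSeq promoter windows of this length, CACGTG in 6.02%, TATAAA in 12.4% and CAAAACA in 5.56%. All 10 genes had a window, with 14 start sites. TTGCATCA was found for Fgf21 alone among them and CAAAACA for Igfbp1 alone. The direct repeat bound by PPAR alpha with RXR was written as AGGTCA, then any 1 base, then AGGTCA. It was in 0 of the 10 genes' windows and in 0.0335% of all windows. For this repeat only the exact spelling was searched, and only within these windows. That spelling was so rare over all windows that its absence from these genes was likely beforehand. The search therefore cannot tell whether these genes have a site for PPAR alpha. A single AGGTCA was found for Gdf15 alone among the 10 genes and in 14% of all windows. A match describes letters and not binding, and the arrays did not measure binding.

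Pctp itself had intensities from 66.5 to 99.7 in knockout livers and from 2737 to 2954 in wild-type livers on its brightest probe set, a log2 difference of -4.87. Array medians lay between 84.0 and 91.1, and arrays correlated at 0.985 to 0.994 on the log2 scale. The log2 value of the 5′ control probe set of beta-actin minus that of its 3′ one, a measure of how complete the labelled RNA was, ran from -1.27 to -1.05 in knockout livers and from -1.77 to -1.41 in wild-type livers (exact permutation test, two-sided, p = 0.00216, 0.00289 after Benjamini-Hochberg adjustment over 4 such control ratios). The same ratio was higher without overlap for Gapdh (by 0.11) and pyruvate carboxylase (by 0.33, exact permutation p = 0.00216 for each), whereas that of the transferrin receptor overlapped, at -2.01 to -1.69 in knockout livers and -2.39 to -1.67 in wild-type livers (exact permutation p = 0.652). For the first 3 ratios no knockout array lay within the wild-type range, so RNA quality as they measure it and genotype cannot be told apart. Among liver cell markers, hepatocyte genes summed to 47787 to 50012 in knockout livers and 45335 to 48574 in wild-type livers, with 2 of 7 higher. Stellate cell and fibroblast genes summed to 3644 to 4350 in knockout livers and 3101 to 3764 in wild-type livers, with 4 of 11 higher (Dcn, Reln, Rgs5 and Ecm1). Of the markers of Kupffer cells (10), sinusoidal endothelial cells (10), cholangiocytes (5) and lymphocytes with neutrophils (6), 0 were called by limma, and 1, 4, 1 and 1 had an unadjusted p under 0.05. That level was passed by 26.3% of all probe sets. The sums overlapped between groups for every list, for example 4279 to 5797 in knockout livers and 3301 to 7685 in wild-type livers for the Kupffer cell markers. The unadjusted exact permutation p of the sums was 0.0281 for hepatocytes and 0.00866 for stellate cells and fibroblasts. For the other lists it was 0.292 to 0.944. Over all genes, 6.46% were called higher. The part of these shifts in the hormone results was not tested. In whole liver a change in the number of cells of a type cannot be told apart from a change in RNA per cell.

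Fgf21 was higher in Pctp-/- livers. Its intensities were 160, 229, 189, 123, 124 and 211 in the 6 knockout livers, against 77.7, 50.4, 39.3, 77.3, 49.98 and 52.1 in the 6 wild-type livers. All 6 knockout livers lay above the highest wild-type liver. The means were 172.6 ± 44.5 in knockout livers and 57.8 ± 15.9 in wild-type livers (SD, n = 6 each). The log2 difference of log2(intensity + 16) was 1.35 (SE 0.171, 95% interval 0.98 to 1.72, limma adjusted p = 0.0008), a 2.54-fold rise. The added 16 damps the fold of a dim probe set. With 1 added in its place the fold was 2.96, with 64 added it was 1.93, and the ratio of the mean intensities was 2.99. When the 5′ to 3′ value of beta-actin was added to the model (“beta-actin in the model” from here on), the log2 difference was 0.91 (SE 0.358, limma adjusted p = 0.673), in a fit that called 2 probe sets over the whole array, both of Pctp. Values with beta-actin in the model are given for the called genes named from the lists where they differ by over 1.5 times. In the authors' deposited table the same probe set was listed with a fold of 3.0, a lower bound of 2.27 and p = 0.000769. By the present calls in the authors' deposited table, Fgf21 was detected on 100% of knockout arrays and 33% of wild-type arrays. It was the 1 probe set of these hormones in that table.

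Fgf21 was the 1 member probe set called higher at an adjusted p of 0.05, while 2 were called lower and 11 did not pass. Across all probe sets, 6.82% were called higher and 5.15% lower, or 12% in either direction. At an unadjusted p of 0.05, 7 of the 14 passed, 6 of them lower, beside 26.3% of all probe sets. In 3 of the 14, those of Fgf21 and 2 of Igfbp4, the groups did not overlap, beside 6.75% of all probe sets. With 1 probe set per gene, 1 of 9 hormone genes was higher and 0 were lower by limma, 11.1% called in all, beside 6.46% higher, 5.24% lower and 11.7% in all over 12393 genes. At an unadjusted p of 0.05, 2 of the 9 passed, Fgf21 higher and 1 lower. The share over all genes at that level was not computed, and over all probe sets it was 26.3%. By gene, the share of hormones called lay near that of the whole array. Called or not, 12 of 14 probe sets had a negative difference, beside 45.1% of all probe sets. The 6 probe sets of Igfbp4 make up 6 of the 12, and 2 of these were called. By gene, 7 of 9 were negative, beside 45.8% of all genes, and the median log2 difference was -0.092, beside 0.015 over all genes.

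**Figure D1:**
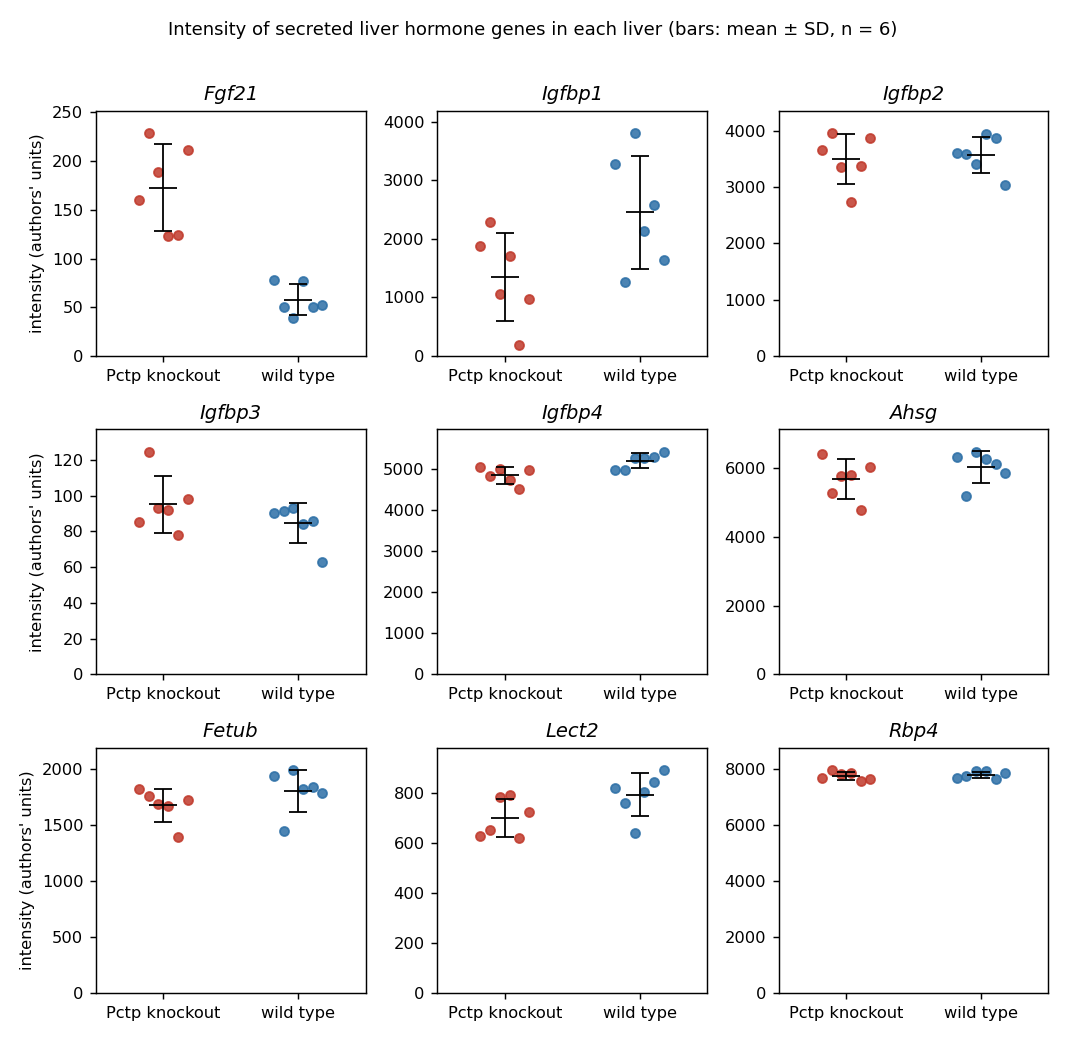
Intensity of each measured hormone gene on its brightest probe set (vertical axes, linear scale), with 1 point per liver, knockout left of wild type, and a bar at the group mean with its SD. The 6 knockout points of Fgf21 sit between 123 and 229, above every wild-type point, while the groups of the other 8 genes overlap on these probe sets.

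The transcription factors and cofactors that act on Fgf21 moved in both directions. Of 17 measured, 2 were higher, 5 were lower and 10 did not pass, with a median log2 difference of -0.090. Atf4, the effector of the integrated stress response that binds the TTGCATCA type of element, averaged 761.1 ± 89.4 in knockout livers and 494.5 ± 45.4 in wild-type livers (SD, n = 6 each). That is a 1.52-fold rise (limma adjusted p = 0.00107), and the lowest knockout value, 665, lay above the highest wild-type value, 563. Another Atf4 probe set also rose, by 0.71 on the log2 scale, and the last of the 3, dim in both groups, differed by -0.074 and did not pass. Nfe2l2 (NRF2, the oxidative stress factor) averaged 1378 ± 169 in knockout livers and 738.6 ± 127 in wild-type livers, a 1.86-fold rise (limma adjusted p = 0.000791). With beta-actin in the model the log2 differences were 0.37 for Atf4 (0.60 without it) and 0.45 for Nfe2l2 (0.89 without it), neither past the threshold.

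Ppara, the receptor for fenofibrate and an activator of Fgf21, was lower in knockout livers. It ranged from 1474 to 1875 with a median of 1516 in knockout livers, against 1946 to 2551 with a median of 2134 in wild-type livers. The groups did not overlap, and Ppara was 1.35-fold lower (limma adjusted p = 0.00449). Its partner receptor Rxra was 1.20-fold lower (limma adjusted p = 0.00517), and the thyroid hormone receptor Thrb was 1.83-fold lower (limma adjusted p = 0.00236). The coactivator Ppargc1a was 2.43-fold lower (limma adjusted p = 0.0119), and all 5 of its probe sets were called lower. Wild-type replicates 3 and 5 were the highest for it, at 193.8 and 233.0. The nuclear receptor Rora was 1.27-fold lower (limma adjusted p = 0.0186). Of the probe sets, 1 of 2 was called for Rxra and 1 of 3 for Rora. With beta-actin in the model the log2 differences were -0.70 for Ppargc1a (-1.28 without it) and -0.64 for Rora (-0.35 without it), neither past the threshold. Rxra, Ppargc1a and Rora were named after their values were seen, to complete the count of 5. These are differences between the 2 groups. Whether any of these factors had a part in the Fgf21 difference was not tested.

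Among 14 measured genes of the integrated stress response, Atf4 was higher, Cebpb, a C/EBP family factor, was 1.32-fold lower (limma adjusted p = 0.00663), and 12 did not pass, with a median log2 difference of -0.012. At an unadjusted p of 0.05, 6 of the 14 passed, beside 26.3% of all probe sets. At that level 9 of the 17 factors and cofactors that act on Fgf21 passed too. Ddit3 (CHOP) had a log2 difference of 0.24 (limma adjusted p = 0.26). The pseudokinase Trib3, an ATF4 target, had one of -0.70 (limma adjusted p = 0.0754).

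The receptors through which FGF21 and its relatives act showed no difference past the threshold. Klb, the gene for beta-klotho, averaged 343.8 ± 24.9 in knockout livers and 335.1 ± 13.2 in wild-type livers, with a log2 difference of 0.033 (95% interval -0.081 to 0.15, limma adjusted p = 0.747). Fgfr4, the main hepatocyte FGF receptor, differed by 0.00071 (95% interval -0.21 to 0.21), and Fgfr1, the receptor of FGF21 in adipose tissue, by -0.097 (95% interval -0.27 to 0.075). Of the feedback genes of the pathway, Dusp6 and Spred1 rose, Spred2 fell, and Spry1, Spry2 and Spry4 did not pass (limma adjusted p = 0.156, 0.631 and 0.878). Dusp6, a phosphatase induced by FGF and ERK signalling, averaged 334.1 ± 77.4 in knockout livers and 174.7 ± 56.3 in wild-type livers, 1.85-fold higher (limma adjusted p = 0.00686), with overlap between the groups. Its log2 difference of 0.89 was 0.24 with beta-actin in the model (adjusted p = 0.94). Spred1, an inhibitor of that cascade, was 1.26-fold higher without overlap (limma adjusted p = 0.00734), and 2 of its 3 probe sets were called. Its relative Spred2 was 1.27-fold lower (limma adjusted p = 0.0235), a call lost without knockout replicate 4 or 5 (adjusted p = 0.0513 in each), and 1 of its 2 probe sets was called. With beta-actin in the model its log2 difference of -0.35 was -0.61 (adjusted p = 0.561). Over the list, 2 of 13 measured genes were higher, 1 was lower and 10 did not pass, with a median log2 difference of 0.091.

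**Figure D2:**
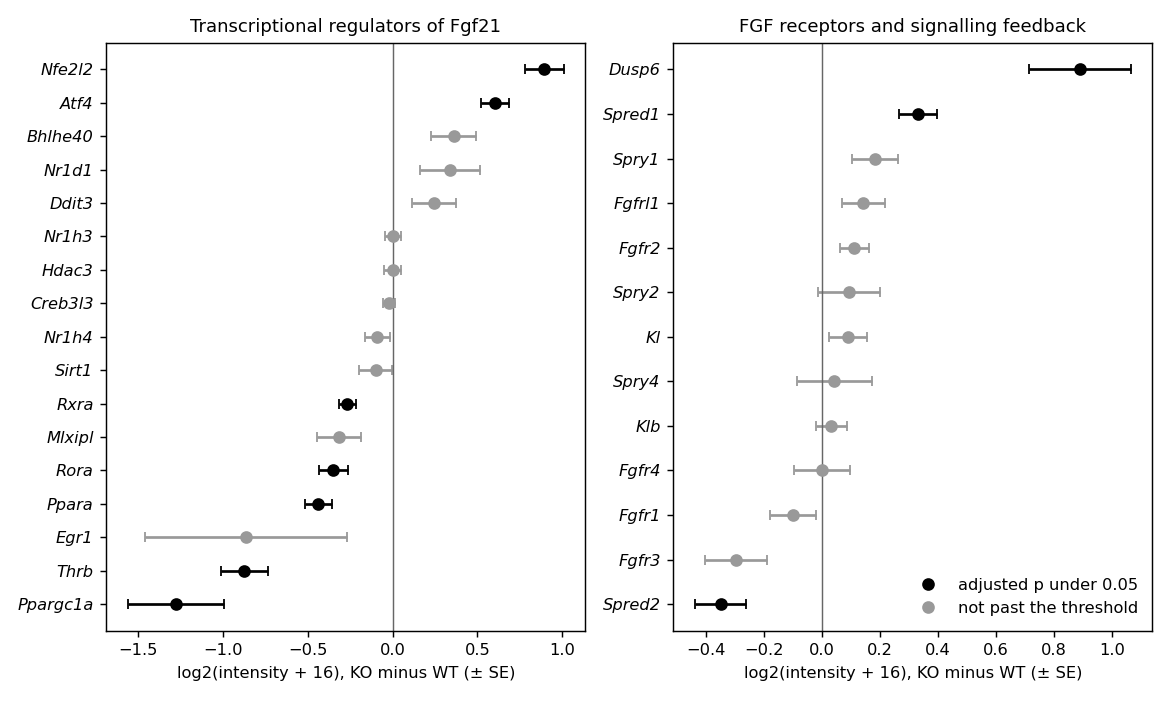
Log2 difference of knockout minus wild type with its SE (horizontal axes) for the 17 measured transcription factors and cofactors that act on Fgf21 (left) and the 13 measured FGF receptors and signalling genes (right), black where the adjusted p was under 0.05 and grey otherwise. Nfe2l2, Atf4, Dusp6 and Spred1 stand to the right of 0 in black, Ppara at -0.44 and 4 other factors or cofactors to the left, and Klb, Fgfr4 and Fgfr1 are grey and near 0.

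Among 6686 genes with a mean intensity of at least 100, the log2 values most like those of Fgf21 over the 12 arrays were those of Ccni (Pearson r = 0.973), Tsnax (0.960), Exoc6 (0.947), Dnajc12 (0.947) and H13 (0.946). All 5 were called higher, with log2 differences of 0.25, 0.17, 0.20, 0.60 and 0.16 in that order. Such a ranking mostly follows the group difference. After each group's mean was subtracted, the closest genes were Ccni (r = 0.893), Elovl2 (0.887), Psmb6 (0.875), Calcrl (0.865) and Tsnax (0.864). Of these, Elovl2, an elongase of polyunsaturated fatty acids, had a log2 difference of -0.23, the proteasome subunit Psmb6 one of 0.0010 and the receptor Calcrl one of 0.11, and these 3 did not pass the test. All genes were read on the same 12 arrays, so the coefficients describe likeness in these arrays only.

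Igfbp1 had the widest spread of the 9 genes. It lies at chromosome 11, 7197787 to 7202546, with Igfbp3 3.54 kb away. Its intensities were 1886, 2284, 1059, 1711, 184.2 and 971.9 in knockout livers, against 3282, 1265, 3807, 2136, 2579 and 1646 in wild-type livers. All 6 knockout livers were below the wild-type median and 3 were below the lowest wild-type liver, so the groups overlapped. The highest liver stood 12.4-fold above the lowest among knockouts and 3.01-fold among wild types. The means were 1349 ± 759 in knockout livers and 2453 ± 970 in wild-type livers (SD, n = 6 each), a log2 difference of -1.09 (SE 0.512, 95% interval -2.20 to 0.017, limma adjusted p = 0.197). Without knockout replicate 5, the lowest liver, the difference was -0.60 (limma adjusted p = 0.248). Its within-group SD of 1.001 on the log2 scale stood at the 99.9th percentile of all genes, whose median was 0.143, and that of Fgf21, at 0.328, at the 95.5th.

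Igfbp4, a carrier that restrains IGF action, was lower on part of its probe sets. On 1 of them the values ran from 654.8 to 757.9 with a median of 702.2 in knockout livers, against 788.1 to 962.3 with a median of 827.7 in wild-type livers. The groups did not overlap, and the difference was -0.25 on the log2 scale (SE 0.0542, limma adjusted p = 0.0105), or 16.1% lower. On another the values ran from 1855 to 2013 with a median of 1999.6 in knockout livers, against 2048 to 2340 with a median of 2223 in wild-type livers. These groups did not overlap either, and the difference was -0.17 (SE 0.0450, limma adjusted p = 0.0306), or 10.9% lower. That call did not survive the loss of a single array among knockout 2, 4 and 5 and wild type 4, 5 and 6 (adjusted p = 0.0502 to 0.0666). The other 4 Igfbp4 probe sets were negative without passing, including the brightest, with 4841 ± 203 in knockout livers and 5191 ± 183 in wild-type livers (log2 difference -0.10, limma adjusted p = 0.168). With the mean of the 6 probe sets as the gene's value, the difference was -0.16 (SE 0.0411, limma adjusted p = 0.0294 over genes), so whether Igfbp4 counts as lower depends on how its probe sets are combined. With group means subtracted, pairs of its probe sets correlated at 0.298 to 0.919 over the 12 arrays. With beta-actin in the model the difference of -0.17 was -0.083 (limma adjusted p = 0.926) and that of -0.25 was -0.23 (limma adjusted p = 0.793). Those of the other 4 Igfbp4 probe sets were then -0.036 to -0.0064. Igfbp4 lies at chromosome 11, 99040005 to 99052655, 9.04 Mb from Pctp. Of 208 measured genes within 10 Mb of Pctp, 10.6% were called, beside 13.7% of the 833 farther along chromosome 11.

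Igfbp2 and Igfbp3 did not pass the test. Igfbp2, a carrier raised in fasting, ran from 2741 to 3957 with a median of 3515 in knockout livers, against 3034 to 3938 with a median of 3587 in wild-type livers (log2 difference -0.036, 95% interval -0.23 to 0.16, limma adjusted p = 0.855). Igfbp3, the main carrier of circulating IGF1, which the liver's nonparenchymal cells make, ran from 78.0 to 124.6 with a median of 92.5 in knockout livers, against 62.95 to 93.0 with a median of 88.3 in wild-type livers. Its log2 difference was 0.14 (95% interval -0.078 to 0.36, limma adjusted p = 0.422). Both pairs of groups overlapped.

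**Figure D3:**
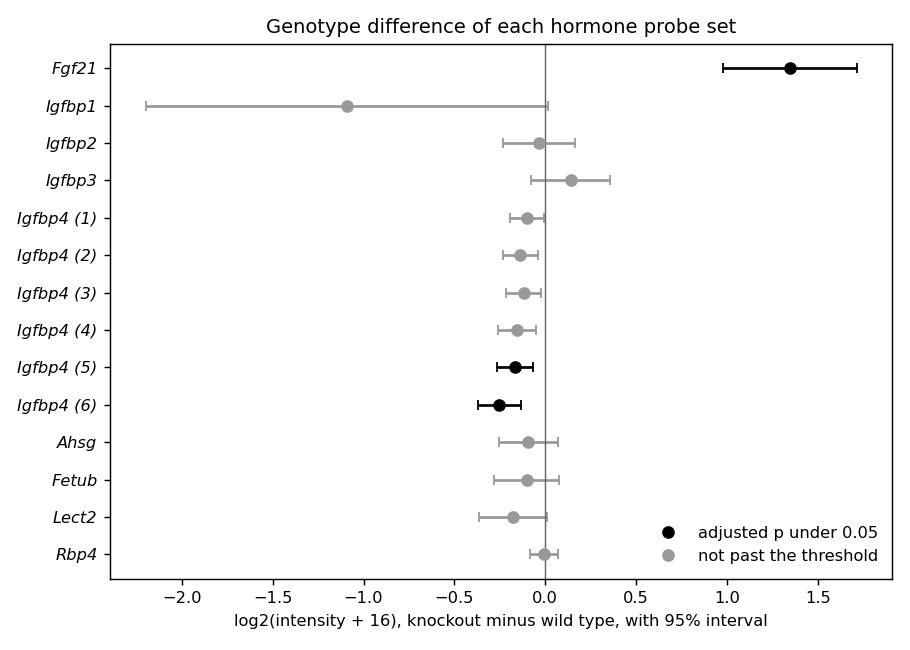
Log2 difference of knockout minus wild type for each of the 14 probe sets (horizontal axis), with 95% intervals from limma, black where the adjusted p was under 0.05 and grey otherwise. Fgf21 stands at 1.35, Igfbp1 at -1.09 with the widest interval, and the 6 Igfbp4 probe sets lie between -0.25 and -0.10.

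Genes of the IGF system around these carriers mostly did not pass. Of 15 measured, 1 was higher, 1 was lower and 13 did not pass, with a median log2 difference of 0.058. Igfbp7, an IGF binding protein relative made by vascular cells, averaged 860.6 ± 41.5 in knockout livers and 622.9 ± 55.0 in wild-type livers, a 1.38-fold rise (limma adjusted p = 0.00104), while its other 2 probe sets did not pass. Irs2, the insulin receptor substrate that hepatic FOXO1 induces, was 1.58-fold lower (limma adjusted p = 0.0181), with a log2 difference of -0.66, and -0.35 with beta-actin in the model (adjusted p = 0.902). The brightest Igf1 probe set had a log2 difference of 0.39 (limma adjusted p = 0.46) that rested on knockout replicate 6, at 12971 beside 2925 to 3360 in the other knockout livers and 2901 to 3406 in wild-type livers. Without that array, left out after its value was seen, the difference was 0.054 (limma adjusted p = 0.613). Igfals, a further subunit of the circulating IGF complex, differed by -0.049 (limma adjusted p = 0.769). The growth hormone receptor Ghr differed by 0.0080 on its brightest probe set (limma adjusted p = 0.941), whereas its other 2 probe sets rose by 0.24 and 0.41 (limma adjusted p = 0.0108 and 0.0142).

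Genes known, like Igfbp1, for repression by insulin through FOXO were listed with FOXO factors and growth hormone targets. Of these 11, 0 were called higher, 2 lower and 9 not called, with a median log2 difference of -0.17. At an unadjusted p of 0.05, 5 of the 11 passed, beside 26.3% of all probe sets. Pck1, the gluconeogenic enzyme PEPCK, averaged 2743 ± 151 in knockout livers and 5182 ± 496 in wild-type livers, 1.88-fold lower (limma adjusted p = 2.46e-05). A second, dim Pck1 probe set did not pass. Among the genes not called, G6pc had a log2 difference of -0.51 (limma adjusted p = 0.0586) and Pdk4 one of 0.30 (limma adjusted p = 0.193). G6pc and Pdk4 were named after their values were seen. Foxo3, a FOXO factor itself, was 1.60-fold lower (limma adjusted p = 0.00289). Foxo1 differed by -0.062 on its brightest probe set (limma adjusted p = 0.631), and 2 of its other 3 probe sets fell, by 0.78 and 0.49 on the log2 scale (limma adjusted p = 0.0005 and 0.0020).

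The fetuins, cystatin-family plasma proteins that bind mineral (Ahsg, fetuin-A) or inhibit metalloproteases (Fetub, fetuin-B), lie side by side on chromosome 16, with Ahsg at 22892015 to 22899451 and Fetub at 22918382 to 22939768, 18.9 kb apart. Ahsg ran from 4769 to 6396 with a median of 5778 in knockout livers, against 5189 to 6469 with a median of 6185 in wild-type livers (log2 difference -0.092, 95% interval -0.26 to 0.073, limma adjusted p = 0.494). Fetub ran from 1393 to 1822 with a median of 1705 in knockout livers, against 1447 to 1986 with a median of 1827 in wild-type livers (log2 difference -0.10, 95% interval -0.28 to 0.077, limma adjusted p = 0.482). In both cases the groups overlapped. Of the 5 cystatin-family genes and fetuin neighbours measured, 0 were called by limma and 1 had an unadjusted p under 0.05. Over all probe sets, 26.3% had such a p. The histidine-rich glycoprotein Hrg differed by -0.024 (limma adjusted p = 0.819) and Kng1, the kininogen gene, by -0.096 (limma adjusted p = 0.201).

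Although their groups overlapped, Ahsg with Fetub, and Igfbp1 with Fetub, passed a Pearson test of variation from liver to liver, and neither pair passed by rank. With each group's mean subtracted, Ahsg and Fetub correlated at r = 0.871 over the 12 livers (permutation p = 0.00107, adjusted over 36 pairs 0.0261), with Spearman's rho of 0.776 (permutation p = 0.00428, adjusted 0.077). Within groups r was 0.818 in knockout livers and 0.976 in wild-type livers (n = 6 each). Without the outermost livers for Ahsg, knockout replicate 5 and wild-type replicate 2, r was 0.506, so much of the relation rests on those livers. Igfbp1 and Fetub correlated at r = 0.831 (permutation p = 0.00145, adjusted 0.0261), with rho of 0.783 (permutation p = 0.00371, adjusted 0.077). Here r was 0.931 in knockout livers and 0.899 in wild-type livers, and 0.798 without knockout replicates 2 and 5, the outermost for Igfbp1. That check kept wild-type replicate 2, the liver farthest from its group mean for Fetub. The values 0.798 and 0.506 therefore leave out different livers and do not rank the pairs. Igfbp1 and Ahsg had r = 0.706 (permutation p = 0.0107, adjusted 0.129) and rho of 0.517 (permutation p = 0.0886, adjusted 0.637), and passed neither test. Of the 36 pairs of hormone genes, 2 passed an adjusted Pearson p of 0.05 and 0 passed by Spearman's rho. Knockout replicate 5 was the lowest knockout liver for these 3 genes and also for Igfbp3, Igfbp4, Lect2 and Rbp4 on their brightest probe sets, 7 of the 9 hormone genes. How often this liver was the lowest knockout over all genes was not computed, so the count has no background beside it. Wild-type replicate 2 was the lowest wild-type liver for Igfbp1, Ahsg, Fetub and Igfbp4.

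**Figure D4:**
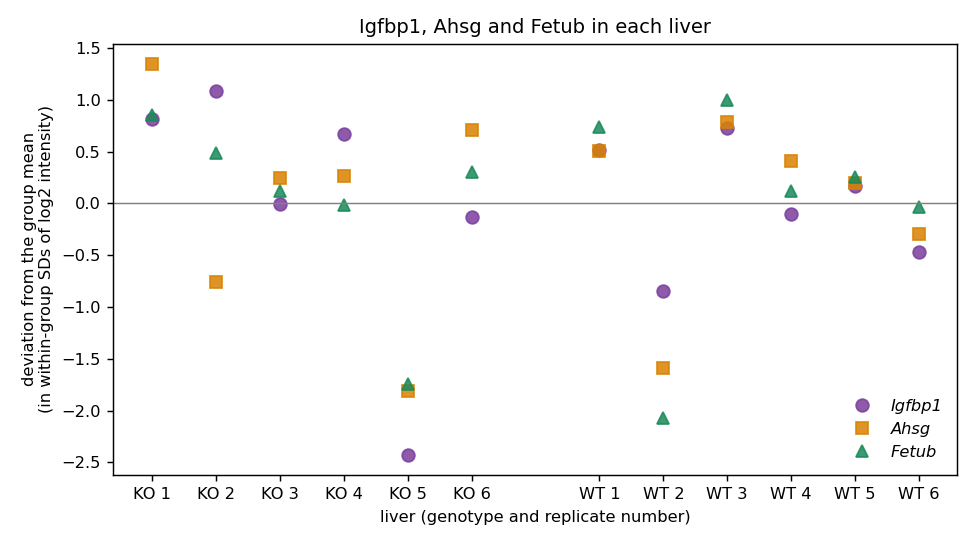
Deviation of Igfbp1, Ahsg and Fetub from their group mean in each liver (vertical axis, in within-group SDs of log2 intensity), with knockout livers left of wild-type livers along the horizontal axis and 1 symbol per gene. All 3 genes are at their lowest in knockout replicate 5 among knockouts and in wild-type replicate 2 among wild types.

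LECT2, a chemotactic factor secreted by hepatocytes and linked to insulin resistance, was represented by 1 probe set. Lect2 ran from 620 to 789 with a median of 687 in knockout livers, against 640 to 890 with a median of 811 in wild-type livers. The groups overlapped, and the log2 difference was -0.18 (SE 0.0876, 95% interval -0.37 to 0.012, limma adjusted p = 0.222).

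Rbp4, which carries retinol from liver to tissues, was the steadiest of the 9 genes. It ran from 7554 to 7954 with a median of 7739 in knockout livers, against 7628 to 7910 with a median of 7794 in wild-type livers. The coefficient of variation was 1.96% in knockout livers and 1.54% in wild-type livers. Its log2 difference was -0.0078 (SE 0.0360, 95% interval -0.086 to 0.070, limma adjusted p = 0.925), and its within-group SD of 0.0254 stood at the 0.299th percentile of all genes. The probe set was brighter than 99.74% of all probe sets, and the part of its brightness in that steadiness was not tested.

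Of 11 measured genes of retinol transport and storage, 2 were higher, 2 were lower and 7 did not pass, with a median log2 difference of 0.027. Rarb, a retinoic acid receptor whose own gene retinoic acid induces, was 1.42-fold higher (limma adjusted p = 0.00791), and Rarres2, the gene for the adipokine chemerin, was 1.22-fold lower (limma adjusted p = 0.0163). The retinol dehydrogenase Rdh11 was 1.36-fold higher (limma adjusted p = 0.0401) and the acyltransferase Dgat1 1.12-fold lower (limma adjusted p = 0.0468). With beta-actin in the model the log2 difference of Rdh11 changed sign, at -0.011 in place of 0.44, and that of Dgat1 was -0.022 in place of -0.16. That of Rdh11 was lost when 1 array among knockout 1, 3, 4 and 6 and wild type 2 to 6 was dropped (adjusted p = 0.0534 to 0.0854) or when 1 was added in place of 16, and that of Dgat1 when 1 among knockout 1, 3, 4 and 5 and wild type 2 to 6 was dropped (adjusted p = 0.0589 to 0.0951), with a trended and robust variance or with a replicate block. Ttr, transthyretin, the plasma partner of RBP4, differed by 0.027 (limma adjusted p = 0.676).

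Among 31 other measured genes listed with the secreted liver factors, 2 were higher, 4 were lower and 25 did not pass, with a median log2 difference of 0.0051. Angptl8, a feeding-induced inhibitor of lipoprotein lipase, ranged from 166.3 to 1038 with a median of 326.6 in knockout livers, against 83.1 to 108.3 with a median of 89.0 in wild-type livers. The groups did not overlap, and it was 3.42-fold higher (limma adjusted p = 0.00483). Inhbe, the inhibin beta E subunit behind activin E, averaged 503.4 ± 158 in knockout livers and 242.5 ± 46.7 in wild-type livers, a 1.96-fold rise (limma adjusted p = 0.00575). With beta-actin in the model the log2 differences were 1.03 for Angptl8 (1.78 without it) and 0.27 for Inhbe (0.97 without it), neither past the threshold. Knockout replicate 5, the liver lowest for Igfbp1, was the highest for both, at 1038 for Angptl8 and 767.5 for Inhbe. Apom, the apolipoprotein that carries sphingosine 1-phosphate, was 1.33-fold lower (limma adjusted p = 0.00216). Mst1, hepatocyte growth factor-like protein, was 1.13-fold lower (limma adjusted p = 0.0209). The acute-phase protein gene Orm1 was 1.27-fold lower (limma adjusted p = 0.0283). Rtn4r, a receptor gene on the list and not a secreted factor, was also called lower (limma adjusted p = 0.0214). Its values, 5.50 ± 2.86 in knockout livers and 11.1 ± 1.85 in wild-type livers, lay below the added 16, so no fold is given. Orm1 and Rtn4r were named after their values were seen, to complete the count. The Orm1 call was lost when 1 array among knockout 1, 3, 4 and 6 and wild type 5 was dropped (adjusted p = 0.0506 to 0.0625). Over all these pathway genes together, hormones left out, 9 of 115 were higher and 16 lower, 21.7% called beside 11.7% of all genes, with a median log2 difference of -0.00054. The genes of these lists were chosen with results of these arrays known, so that share is a description of the lists.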

How the data were processed

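Total liver RNA of 12 mice was labelled as biotinylated cRNA, per the labels' protocols. The deposited intensity of each probe set and array is on a linear scale. Which program summarised the probes is not given in the sources used. The authors' deposited table of 727 probe sets gives a fold with its bounds, a p-value and the percent of present calls, per the file headers. Its 24 other columns of per-sample values were not used.

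After leaving out 64 controls, 22626 probe sets were tested, 20380 of them with 1 gene symbol, 691 with several and 1555 with none. A gene (12393 in all) was its brightest single-symbol probe set. Values were log2(intensity + 16), tested knockout minus wild type with limma 3.58.1 (lmFit, eBayes) in R 4.3.3. Tests were two-sided, p-values were adjusted by Benjamini-Hochberg across the tested probe sets, and the threshold was 0.05. The procedure was tested on simulated data. Folds are 2 to the power of the difference. The limma p-values set that difference against the spread between these livers, moderated over all probe sets. Correlations used 100000 permutations. Motifs were searched and figures drawn with Python 3.11.15 and matplotlib 3.10.9.

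The hormones, lists and tests were chosen with earlier results of these data known. The text names the hormones, Pctp, 14 partner genes whatever their values, up to 4 called genes with the smallest p per list, and the 5 genes most like Fgf21 on each measure. Alternatives changed the constant, scaling, dim filter, variance model, block, threshold, covariate, gene summary and arrays. Leaving an array out for Igf1, and applying the alternatives to the partner genes, were chosen after seeing the data.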

Additional observations from a re-analysis of the deposited data

Results flagged for a closer look

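In 5 of 28 groups of 6 livers (14 probe sets, 2 genotypes), 1 liver stood far from the other 5 relative to the group's range on the log2 scale. Chance alone marks about 1 in 20 such groups. Igfbp1 was at 184.22 in knockout replicate 5, the lowest knockout liver. Igfbp3 was at 62.95 in wild-type replicate 6, the lowest wild-type liver. On the Igfbp4 probe set with the larger difference, wild-type replicate 5 was the highest wild-type liver at 962.31. Fetub was at 1393.2 in knockout replicate 5 and at 1446.5 in wild-type replicate 2, the lowest of their groups.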

How the results depend on the processing

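Fgf21 was higher under every alternative run, with a log2 difference of 0.95 to 1.56 (adjusted p 0.000223 to 0.0104), and 1.26 to 1.43 with 1 array left out. The exception in significance was the fit with the beta-actin 5′ to 3′ ratio as a covariate, where it was 0.91 (SE 0.358, adjusted p = 0.673). In that fit the median SE was 2.20 times larger, and 0 of the hormone probe sets were called higher and 0 lower, with 0 higher and 2 lower (both Pctp) over the array. The number of hormone probe sets called lower, 2 as reported, was 5 with 64 added before the log, 4 each without dim probe sets, after median centring and after quantile scaling, 6 with a trended and robust variance, 0 at an adjusted p of 0.01, and 1 to 4 with 1 array left out. It was 1 with the replicate number as a block, where the weaker Igfbp4 call had an adjusted p of 0.101. Same-numbered arrays correlated at -0.078 to 0.078 in their deviations over all probe sets. These values show no array-wide pairing by number, and the check cannot exclude a weak one. The block gave 727 probe sets lower over the array, beside 1165 without it, and the calls of Mst1 (adjusted p = 0.0566) and Dgat1 were lost. At an adjusted p of 0.01, 573 were higher and 397 lower. With 1 array left out, 1132 to 1641 were higher and 855 to 1101 lower. The Igfbp2 difference changed sign without knockout replicate 4 (0.032, with a range of -0.081 to 0.032 over single arrays left out) and that of Rbp4 with the covariate (0.024), as did that of Rdh11 (-0.011). Igfbp2 and Rbp4 did not pass in any setting. The share of calls that were higher was 57.0% as deposited, 49.2% after quantile scaling and 44.0% after median centring. With the mean of its probe sets, Igfbp4 was called (-0.16). The number of arrays limits precision.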
